A study of Homo sapiens with 6 samples.

Results

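Zinc finger genes with ZNF symbols make up one of the largest groups of DNA binding proteins in the human genome, and 236 of them were counted well enough here to be compared one by one. They were selected on their counts: entries sharing a symbol were added together, symbols made of ZNF followed only by digits were taken, and those with at least 20 counts in each of the 6 libraries were kept. The files held 476 such symbols among 24462 symbols in all. Because the counts themselves chose the members, counts and medians over the members are given as a description and support no statement about ZNF genes at large.

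The RNA-seq dataset compared 1CT, a human colonic epithelial progenitor line (HCEC, genotype WT, immortalized with hTERT), with 1CT-A, the same line with APC knocked down (genotype APC KD). There were 3 libraries of each, no treatment, and both lines grew in the same medium, with EGF at 20 ng/ml, hydrocortisone, insulin, selenite, transferrin and 2% FBS. The libraries were QuantSeq 3′ libraries, which read the end of each transcript, with 7788679 to 8452258 counts in 1CT and 11158108 to 12602988 in 1CT-A. How APC was lowered in 1CT-A, whether 1CT-A is a single clone, and whether the libraries came from separate cultures are not given in the sources used here, so the p-values measure only the spread between these libraries, which may be technical.

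A C2H2 zinc finger is a short fold held by a zinc ion, and fingers in a row read a stretch of DNA. Many ZNF proteins carry a KRAB box at the front, which recruits TRIM28 (KAP1) and through it the histone methyltransferase SETDB1, HP1 proteins and DNA methylation, and silences the bound DNA, often a transposable element. Genes of this KRAB class lie in clusters, above all on chromosome 19, and arose largely by duplication. ZNF genes without a KRAB box include activators, partners of corepressors, and proteins that work on RNA or ribosomes. APC is the scaffold of the β-catenin destruction complex and the gene most often lost at the start of colorectal tumours.

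APC was measured at 49.3, 43.8 and 46.6 CPM (counts scaled to the file total) in 1CT and at 31.5, 30.0 and 34.4 in 1CT-A, a log2 fold change of -0.58 (SE 0.09, edgeR adjusted p = 0.000176). The cell lines did not overlap for APC, in the direction of the labels. The labelled epithelial identity was only weakly visible: EPCAM and CLDN3 had 0 counts in every library, which allows up to 3, and the 7 epithelial markers together reached 13.5 to 17.5 CPM in 1CT and 3.32 to 7.28 in 1CT-A. The 7 mesenchymal and fibroblast markers, VIM and collagen genes among them, reached 4319 to 5373 CPM in 1CT and 4126 to 4422 in 1CT-A. Of the 6 blood and immune markers, 4 had at most 3 counts in any library and LYZ at most 5. CD68 had 85 to 121 counts in each library and was lower in 1CT-A (log2 fold change -0.41, edgeR adjusted p = 0.0380). In RNA from whole cultures, fewer cells of a type and less RNA per cell cannot be told apart.

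Most of the 236 members were not called different between the lines, which does not show that their levels were equal. Of them, 34 were higher in 1CT-A, 39 were lower and 163 were not called at an edgeR adjusted p under 0.05, so 30.9% were called. Among all 12514 genes tested, 51.0% were called, with 25.0% higher and 26.0% lower. Among all 10384 genes that reached the same count minimum, 51.0% were called as well, with 27.3% higher and 23.7% lower. The members' shares were 14.4% higher and 16.5% lower. Without 1CT-A replicate 2 the lower calls came to 24, and 28 were made by DESeq2 with all 6 libraries, against 31 higher. Which direction held more calls also turned, to 41 higher and 32 lower with library size only and to 40 and 32 without a filter.

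The size of the differences was modest. The median log2 fold change of the members was -0.03, with quartiles at -0.30 and 0.21, and the full range ran from -1.74 to 1.48. The sign of this median was not stable: it was 0.0145 without a filter on low counts, 0.00693 with library size only and 0.00179 without the members whose ends share or overlap other genes. Over all genes at the minimum the median was 0.02, with quartiles at -0.30 and 0.32. A fold change of at least 2 was reached by 8 called members (3.39%), 3 of them higher and 5 lower, against 7.58% of all genes at the minimum. In CPM of the file total, 52 of the 236 members were higher in every 1CT-A library than in any 1CT library and 55 were lower. Among the 10384 genes at the minimum, 3596 were higher and 2656 lower in this way.

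**Figure D1:**
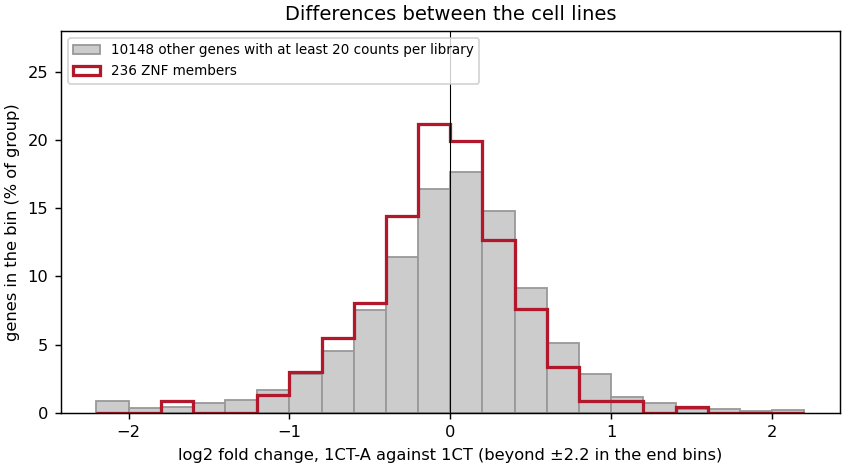
Spread of the differences between 1CT-A and 1CT on the log2 scale, as the percentage of genes in each bin, for the 236 ZNF members (red outline) and the 10148 other genes with at least 20 counts per library (grey bars). Both peak near 0, and the members have a quartile range of 0.51 against 0.62.

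ZNF transcripts were scarce. The median of the members' mean levels was 10.1 CPM, against 28.9 CPM for the other genes at the minimum, and low counts leave less power to call a gene. Genes were therefore set side by side by level. Of the members with up to 5 CPM, 20.0% were called, against 28.4% of the other genes at that level. Between 5 and 10 CPM the shares were 25.4% and 42.5%, between 10 and 20 CPM 31.4% and 46.3%, between 20 and 50 CPM 43.1% and 54.0%, and above 50 CPM 44.4% and 60.4%. The members had the smaller share in each of these 5 ranges, without a test of the difference. Their replicates also spread more: the median coefficient of variation was 12.2% in 1CT and 9.69% in 1CT-A, against 9.74% and 6.71% for the other genes. This comparison was not matched by level, and counting error alone is larger at lower counts.

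All members together took 0.440%, 0.437% and 0.444% of the counts of the 1CT libraries and 0.460%, 0.461% and 0.464% of those of 1CT-A. The summed level was 4404 ± 34.2 CPM in 1CT and 4617 ± 17.5 CPM in 1CT-A (SD, n = 3), which is 4.84% higher and without overlap between the lines. With TMM factors the sums were closer, at 4470 and 4561 CPM, and the libraries of the lines overlapped. Members with a KRAB pattern summed to 1326 ± 19.5 CPM in 1CT and 1272 ± 24.5 in 1CT-A (SD, n = 3), a change of -4.07%. Those without it summed to 3069 ± 55.5 and 3336 ± 26.6 CPM (SD, n = 3), 8.70% higher.

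**Figure D2:**
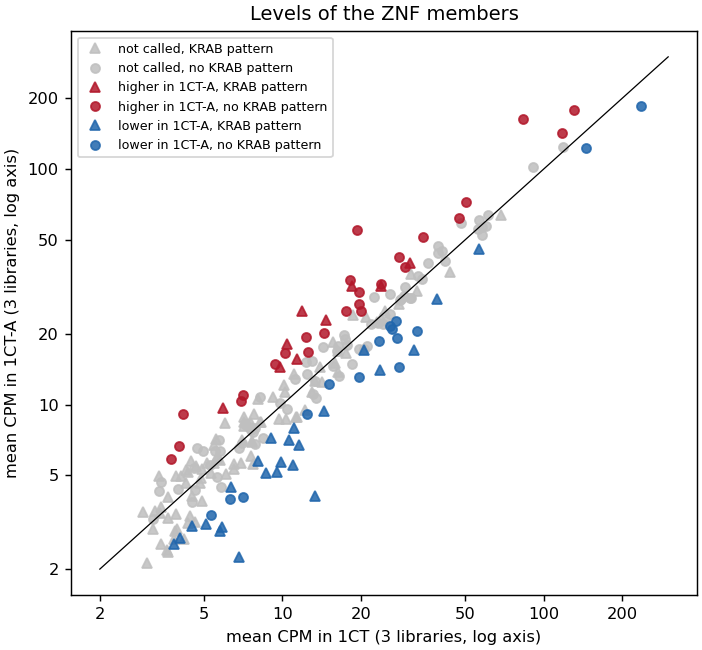
Mean CPM of 235 members in 1CT (horizontal, log axis) and 1CT-A (vertical, log axis), each over 3 libraries; triangles have a KRAB pattern, circles do not, and colour gives the edgeR call at adjusted p under 0.05. The line marks equal levels. KRAB genes crowd the low end, with a median of 7.35 CPM against 18.2 CPM.

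The most abundant members, none of which has a KRAB pattern, moved in both directions. ZNF428 stood at 221, 219 and 268 CPM in 1CT and at 213, 167 and 175 in 1CT-A, and fell by 0.39 on the log2 scale (SE 0.11, edgeR adjusted p = 0.00810). ZNF770 stood at 135, 135 and 121 CPM in 1CT and at 181, 172 and 182 in 1CT-A, and rose (log2 fold change 0.41, SE 0.07, edgeR adjusted p = 0.000382). ZNF106, an RNA binding protein, went from 145, 140 and 153 CPM to 133, 119 and 118 (log2 fold change -0.28, edgeR adjusted p = 0.00971). None of these 3 genes overlapped between the lines. ZNF207 (BuGZ), which brings BUB3 to kinetochores and the spindle, went from 124, 111 and 119 CPM to 140, 142 and 145 (log2 fold change 0.23, edgeR adjusted p = 0.0152). Without 1CT-A replicate 2 the falls of ZNF428 and ZNF106 no longer passed, at edgeR adjusted p of 0.0520 and 0.0536. Without 1CT-A replicate 3 ZNF106 and ZNF207 did not pass (edgeR adjusted p of 0.0615 and 0.0601), and ZNF207 did not pass without 1CT replicate 2 (0.0611) or with upper-quartile normalization (0.0589). Levels are compared here within a gene: a 3′ library gives about 1 read per transcript whatever its length, and no value was scaled per length.

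The largest rise among the members was that of ZNF618, which partners UHRF2 in reading 5-hydroxymethylcytosine. It was at 16.0, 21.9 and 19.9 CPM in 1CT and at 54.0, 52.7 and 59.2 CPM in 1CT-A, 2.80-fold higher (log2 fold change 1.48, SE 0.11, edgeR adjusted p = 3.45e-07). ZNF608, the paralogue of ZNF609, rose from 4.26, 4.59 and 3.59 CPM to 9.05, 10.0 and 8.25 CPM (log2 fold change 1.09, SE 0.18, edgeR adjusted p = 0.000234). For each of them every 1CT-A library lay above every 1CT library by a gap wider than the spread inside a line. ZNF534, a KRAB protein described at endogenous retroviruses, rose from 11.2, 12.4 and 12.1 CPM to 23.7, 26.0 and 25.2 CPM (log2 fold change 1.03, SE 0.11, edgeR adjusted p = 8.55e-06). It was the only called member with a KRAB pattern that doubled.

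ZNF146 (OZF), a protein made almost wholly of fingers, had 104, 91.6 and 54.3 CPM in 1CT and 149, 175 and 166 in 1CT-A. The third 1CT library was low, and the log2 fold change of 0.93 (SE 0.16, edgeR adjusted p = 0.000377) became 0.72 without it, with an edgeR adjusted p of 1.29e-06. ZNF143, an activator of small nuclear RNA and many other promoters, rose from 12.3, 9.18 and 9.12 CPM to 15.8, 17.1 and 16.7 (log2 fold change 0.66, SE 0.14, edgeR adjusted p = 0.00195). ZNF367 rose from 22.8, 18.8 and 13.0 CPM to 31.3, 31.7 and 38.7 (log2 fold change 0.85). The KRAB genes ZNF689 and ZNF227 rose by log2 fold changes of 0.75 and 0.74, the SCAN gene ZNF232 by 0.69 and the KRAB gene ZNF548 by 0.66. Of these, ZNF232 no longer passed without 1CT-A replicate 2 (edgeR adjusted p = 0.0526), and ZNF548 did not pass without 1CT replicate 2, 1CT replicate 3 or 1CT-A replicate 2 (adjusted p = 0.0536, 0.0562 and 0.0932). The other 24 rises had log2 fold changes from 0.23 to 0.63.

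The 10 largest falls included 8 genes with a KRAB pattern, 7 of them on chromosome 19. ZNF69 was at 10.5, 14.6 and 15.0 CPM in 1CT and at 3.50, 4.83 and 3.97 CPM in 1CT-A, 3.35-fold lower (log2 fold change -1.74, SE 0.19, edgeR adjusted p = 7.99e-06). ZNF626 went from 8.05, 6.88 and 5.52 CPM to 1.79, 2.19 and 2.78 CPM (log2 fold change -1.62, SE 0.24, edgeR adjusted p = 9.03e-05). The lowest 1CT library of ZNF69 was still more than 2 times its highest 1CT-A library. ZNF814 went from 10.8, 11.3 and 10.8 CPM to 5.56, 6.41 and 4.60 (log2 fold change -1.03, edgeR adjusted p = 0.000190), and ZNF555 from 5.68, 6.52 and 5.14 CPM to 2.51, 3.34 and 2.86 (log2 fold change -1.03, edgeR adjusted p = 0.00137). ZNF558, a repressor of the mitophagy gene SPATA18, went from 5.80, 6.76 and 5.14 CPM to 3.05, 2.90 and 3.09 (log2 fold change -1.01). The end of ZNF558 holds 50-base runs that occur in other genes, so its counts are uncertain.

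ZNF827, which recruits the NuRD complex to telomeres, was the largest fall of a gene without a KRAB pattern. It was at 25.6, 30.4 and 28.1 CPM in 1CT and at 12.6, 15.4 and 15.5 in 1CT-A (log2 fold change -0.99, SE 0.12, edgeR adjusted p = 1.85e-05), with no overlap. ZNF587, a KRAB repressor of transposable elements, went from 29.7, 32.8 and 32.9 CPM to 16.8, 19.1 and 15.2 (log2 fold change -0.94, SE 0.11, edgeR adjusted p = 1.72e-05). Its transcript end shares 54 runs of 50 bases with that of ZNF417, and the gene lies within ZNF814 on the opposite strand. Strand use in the counting is not stated, so reads of ZNF587, ZNF814 and ZNF417 cannot be told apart with certainty. The annotated transcript end of ZNF814 itself shares no such run and overlaps no exon of another gene. ZNF350 (ZBRK1), a repressor that works with BRCA1, went from 10.1, 9.90 and 9.76 CPM to 6.09, 4.92 and 6.03 (log2 fold change -0.84, edgeR adjusted p = 0.000781). ZNF337 fell by 0.91 on the log2 scale (edgeR adjusted p = 0.00599), from 7.81, 8.93 and 11.9 CPM to 3.58, 5.00 and 6.90. A fit added after seeing the data left out 1CT replicate 3 and 1CT-A replicate 1. There its log2 fold change was -0.52 and it was not called (edgeR adjusted p = 0.0652). ZNF500, a SCAN gene, fell by 0.84 from 7.10, 7.0 and 7.06 CPM to 6.18, 2.72 and 3.25, and was no longer called without 1CT-A replicate 2 or 3 (edgeR adjusted p = 0.0817 and 0.0803); its end overlaps DNAAF8 on the other strand. The other 29 falls had log2 fold changes from -0.81 to -0.28.

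**Figure D3:**
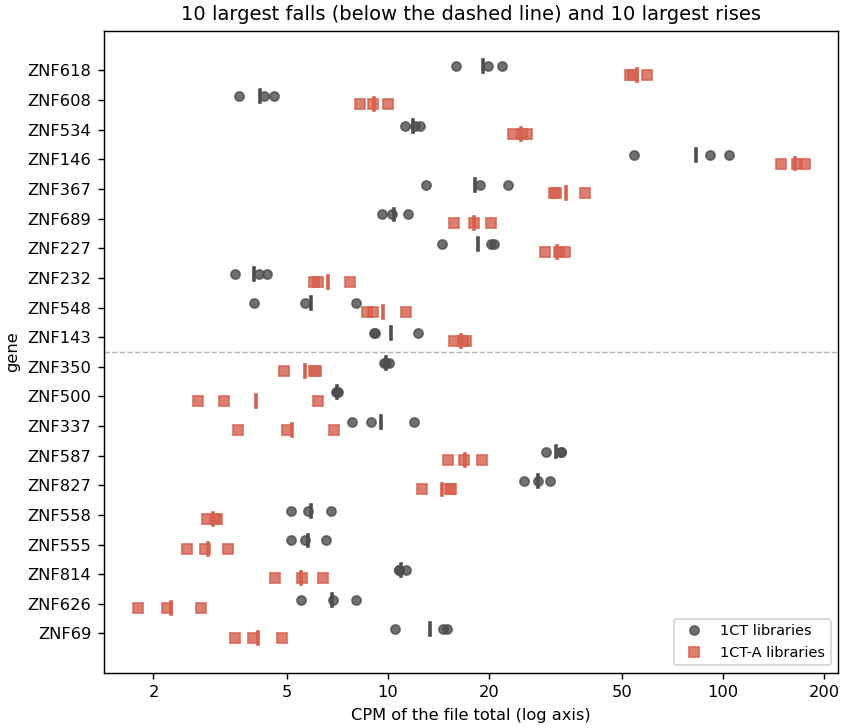
CPM of the file total in each library (log axis) for the 10 largest rises and 10 largest falls among members called at an edgeR adjusted p under 0.05; circles are the 3 libraries of 1CT, squares the 3 of 1CT-A, and vertical ticks the means. The lines do not overlap for any of these genes, which the choice of genes required.

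Of the members averaging 10 CPM or more, the 3 with the smallest log2 fold changes follow. ZNF708 was at 17.5, 17.5 and 14.1 CPM in 1CT and at 14.1, 15.0 and 21.3 in 1CT-A, with a log2 fold change of 0.00 (SE 0.16). ZNF451, a SUMO ligase, was at 58.9, 65.4 and 59.6 CPM and at 61.0, 66.2 and 63.8 (log2 fold change 0.02, SE 0.08). ZNF592 was at 15.9, 15.6 and 17.2 CPM and at 14.5, 17.6 and 18.3 (log2 fold change 0.02, SE 0.13). For each of the 3 the libraries of the lines overlapped.

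By their known roles, the members split as follows, beside 27.3% higher and 23.7% lower among all genes at the minimum. Of 11 members with a SCAN domain, a dimerization domain, 2 rose (ZNF202 and ZNF232), 1 fell (ZNF500) and 8 were not called. The rise of ZNF202 (log2 fold change 0.60, edgeR adjusted p = 0.0319) was lost in 6 alternative fits, at an adjusted p of 0.0829 by DESeq2, 0.0536 with the replicate block, and 0.0617 to 0.112 in edgeR without 1CT replicate 2, 1CT replicate 3, 1CT-A replicate 2 or 1CT-A replicate 3. Of 19 characterised activators and coregulators without KRAB, 3 rose (ZNF143, ZNF131 and ZNF644, a partner of the methyltransferase G9a), 2 fell (ZNF827 and ZNF516) and 14 were not called. ZNF644 was lost in 9 alternative fits, among them DESeq2 (adjusted p = 0.0982), the replicate block (0.0682) and edgeR without 1CT replicate 1 (0.159), 1CT replicate 2 (0.0740) or any one 1CT-A library (0.0501 to 0.130). ZNF131 was lost by DESeq2 (adjusted p = 0.0637) and by edgeR without 1CT replicate 1 (0.0561) or 1CT-A replicate 2 (0.0863). ZNF516 was lost by edgeR without 1CT replicate 1 (adjusted p = 0.0841) or 1CT-A replicate 2 (0.0671). The median log2 fold change of these 19 was 0.02. ZNF148 and ZNF281 had log2 fold changes of -0.04 and 0.10 (edgeR adjusted p = 0.683 and 0.405).

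Of 9 members of RNA, ribosome, ubiquitin, SUMO or spindle processes, 4 rose, 1 fell and 4 were not called, beside the 51.0% called among all genes at the minimum. ZNF326, a part of the DBIRD complex that couples transcription to splicing, went from 37.1, 32.6 and 33.6 CPM to 48.6, 51.3 and 54.0 (log2 fold change 0.53, SE 0.09, edgeR adjusted p = 0.000262). ZNF830 went from 22.0, 17.6 and 19.5 CPM to 30.7, 26.9 and 32.9 (log2 fold change 0.58, edgeR adjusted p = 0.00130). ZNF330 and ZNF207 had log2 fold changes of 0.35 and 0.23. ZNF330 was lost in 6 alternative fits, with a log2 fold change of 0.22 (edgeR adjusted p = 0.0597) without 1CT replicate 3 and an adjusted p of 0.0525 to 0.0785 without any one 1CT-A library. ZNF622, a factor of the large ribosomal subunit, fell from 26.4, 23.9 and 27.3 CPM to 21.7, 22.1 and 21.0 (log2 fold change -0.30, edgeR adjusted p = 0.0273). Its call was lost in 8 alternative fits, at an adjusted p of 0.0731 by DESeq2, 0.0949 without a filter, and 0.0627 to 0.103 in edgeR without any one 1CT-A library, 1CT replicate 1 or 1CT replicate 3. ZNF598, the ligase that marks collided ribosomes, had a log2 fold change of 0.10 and was not called.

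Of 7 KRAB members known to bind transposons, imprinted regions or ZNF gene arrays, 1 rose, 1 fell and 5 were not called. Among all genes at the minimum, 51.0% were called. ZNF91, the repressor of SVA elements, went from 12.3, 8.93 and 13.4 CPM to 5.65, 7.64 and 6.90 (log2 fold change -0.81, SE 0.18, edgeR adjusted p = 0.00252), and ZNF534 was the one that rose. ZNF445, which keeps imprints, was at 32.7, 30.9 and 29.7 CPM and at 36.7, 33.3 and 37.3 (log2 fold change 0.16, edgeR adjusted p = 0.157). ZNF274, which brings SETDB1 to the ends of ZNF genes, had a log2 fold change of 0.23 (adjusted p = 0.472). The study named ZNF513 and ZNF766 among the regulons of its slowly growing subpopulation, inferred from single-cell data. That is a different measure in other samples, and the RNA levels here do not check it. Here ZNF513 had a log2 fold change of -0.37 (edgeR adjusted p = 0.0505) and ZNF766 one of -0.41 (adjusted p = 0.0583), so neither was called.

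The genes that KRAB proteins work through were read from a list. Of 17 corepressor and HP1 genes tested, 13 were higher and 4 were not called, against 25.0% higher among all genes tested. Most of the 17 averaged above 50 CPM, where 36.3% of the other genes at the minimum were higher. TRIM28 went from 56.0, 52.8 and 60.7 CPM to 85.7, 79.0 and 89.4 (log2 fold change 0.55, SE 0.09, edgeR adjusted p = 0.000200). CBX3, an HP1 protein, went from 813, 758 and 854 CPM to 1257, 1329 and 1342 (log2 fold change 0.66, SE 0.07, edgeR adjusted p = 4.14e-06). DNMT1 had a log2 fold change of 0.90 and UHRF1, which guides it to replicated DNA, one of 1.64. SETDB1, at 6.39, 7.97 and 8.09 CPM in 1CT and 8.87, 10.6 and 9.20 in 1CT-A, had a log2 fold change of 0.32 and did not pass (edgeR adjusted p = 0.118). Of 10 HUSH and heterochromatin genes tested, 6 were higher, 1 (ATRX, -0.24) was lower and 3 were not called. HELLS, a remodeller needed for DNA methylation, was at 0.74. The 3 not called were MPHOSPH8, PPHLN1 and MORC2, the genes of this list tied to HUSH. Their log2 fold changes were -0.14, -0.03 and -0.05.

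The calls were also counted by protein class. A KRAB box was sought as a sequence pattern in the annotated protein, where diverged boxes, such as those beside a SCAN domain, can escape. It was found in 120 members and not in 115, and 1 member, ZNF720, had no annotated coding sequence matched. Of the 120, 9 were higher, 24 lower and 87 not called, with a median log2 fold change of -0.13. Of the 115, 25 were higher, 15 lower and 75 not called, with a median of 0.03. The shares were 7.5% higher and 20.0% lower for the 120, and 21.7% and 13.0% for the 115. Among all genes at the minimum, 27.3% were higher and 23.7% lower. The KRAB members had a median of 11.5 fingers against 7 in the others, and over all members the number of fingers ran from 0 to 36. Of 26 members with 1 to 3 fingers, 8 were higher and 3 lower, and of 72 with 13 or more, 5 were higher and 13 lower.

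Chromosome 19 held 99 of the members. Of its 74 KRAB members, 6 were higher, 19 lower and 49 not called (median log2 fold change -0.21), and of the 46 KRAB members on other chromosomes, 3 were higher, 5 lower and 38 not called (median -0.01). The 25 members of chromosome 19 without the pattern had 5 higher, 3 lower and a median of 0.04, and the 90 elsewhere had 20 higher, 12 lower and a median of 0.03. Other genes of chromosome 19 at the minimum, 515 in number, had 107 higher, 137 lower and a median of -0.03. The shares were 8.11% higher and 25.7% lower for the 74, and 20.8% and 26.6% for these 515. Among all genes at the minimum they were 27.3% and 23.7%. The KRAB members of chromosome 19 summed to 805 ± 3.86 CPM in 1CT and to 751 ± 16.8 in 1CT-A (SD, n = 3), a change of -6.62% without overlap.

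Level and base composition moved with the class. Of the 45 KRAB members between 5 and 10 CPM, 2.22% were higher and 24.4% lower, against 16.3% and 26.2% of the 1408 other genes at that level. Of the 36 with up to 5 CPM, 7 (19.4%) were lower and 29 were not called, while 3.33% of 661 other genes were higher and 25.1% lower. Of the 23 KRAB members between 10 and 20 CPM, 21.7% were higher and 13.0% lower, against 22.5% and 23.9% of 1882 other genes. Of the 14 between 20 and 50 CPM, 21.4% were higher and 14.3% lower, against 31.8% and 22.2% of 2725 other genes. These shares were not tested against each other. The median GC content of the last 500 transcript bases was 37.6% in KRAB members and 42.4% in the rest. In the fifth of all genes at the minimum with 32.6% to 38.0% GC, 642 of 1928 genes were higher and 355 lower. In the fifth with 38.0% to 44.8% GC, 631 of 1977 were higher and 418 lower.

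Other measures differed between the lines as well. The nuclear retained RNAs MALAT1, NEAT1 and KCNQ1OT1 had log2 fold changes of -2.60, -1.64 and -1.92, and the 378 olfactory receptor genes, known from the nose, summed to 3.38 to 4.50 CPM in 1CT and 1.40 to 1.67 in 1CT-A. An olfactory receptor gene thus had a mean of 0.00894 to 0.0119 CPM in 1CT. The lowest member of any 1CT library was at 2.37 CPM, which is the count minimum of that library in CPM. The choice of members therefore fixed the distance between these values, and no conclusion is drawn from it. The part of level, base composition and nuclear RNA in the differences of the KRAB class was not tested.

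Members that follow each other on chromosome 19 did not always move together. Among the 98 pairs of consecutive members, leaving out the genes below the minimum between them, 59 had log2 fold changes of the same sign, and of the 12 pairs in which both were called, 8 had the same sign. The following genes were picked after their values were seen. ZNF480 and ZNF534 are consecutive members and were higher, with log2 fold changes of 0.34 and 1.03. Between them lie ZNF880 and ZNF528, both below the minimum and both called lower. ZNF578, also below the minimum and called lower, comes directly after ZNF534. The next 3 members, ZNF701, ZNF83 and ZNF611, were lower. ZNF611 went from a mean of 14.5 to 9.39 CPM (log2 fold change -0.66, edgeR adjusted p = 0.00165), ZNF83 from 6.32 to 3.96 CPM (-0.71, adjusted p = 0.00774) and ZNF701 from 4.04 to 2.72 CPM (-0.60, adjusted p = 0.0405). ZNF320, which follows a little further, went from 8.67 to 5.10 CPM (-0.81, adjusted p = 0.00263). Another 3 consecutive members, ZNF506, ZNF626 and ZNF85, were all lower, with log2 fold changes of -0.76, -1.62 and -0.62. Because these genes arose by duplication, some share sequence: over all members, 40 hold in their last 500 bases a 50-base run found in another gene, and 17 overlap an exon on the other strand.

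**Figure D4:**
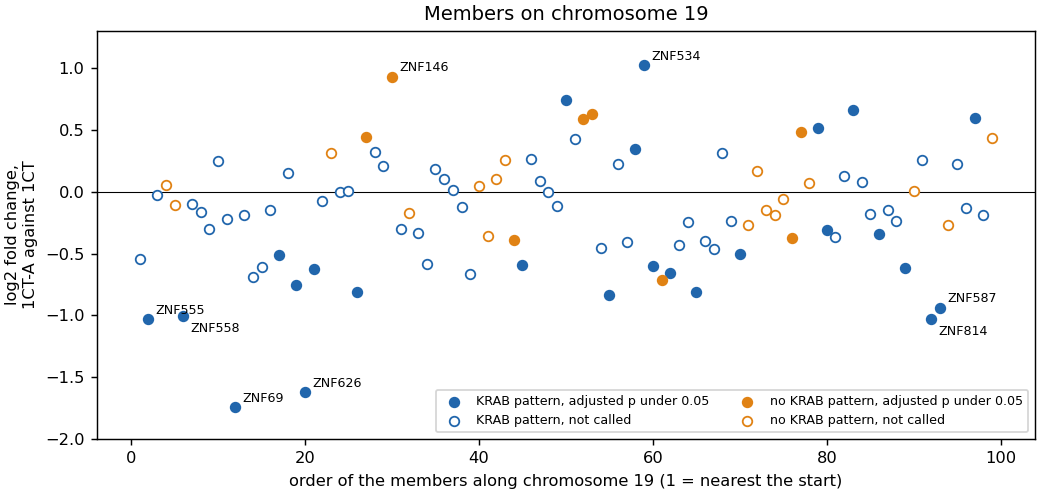
Log2 difference between 1CT-A and 1CT for the 99 members on chromosome 19, in their order along the chromosome; blue has a KRAB pattern, orange does not, and filled points have an edgeR adjusted p under 0.05. Most filled blue points lie below 0, and ZNF534, the highest, is followed by members that were lower.

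Promoter sequence was shared across members that moved in opposite directions. RefSeq windows (GRCh38.p14) from 250 bases before to 50 after a transcription start were matched for 205 members, in 267 windows. CCGGAAG, the core that ETS family factors bind, was found on either strand in 95 of them (35.6%), against 10.3% of all 35116 windows and 17.7% of the windows of all genes at the minimum. It was in 32.5% of the windows of members that were higher and in 32.7% of those of members that were lower, and in 42.1% of KRAB windows against 29.1% of the others. The E-box CACGTG, which MYC and its relatives bind, was in 6.74% of member windows and in 7.26% of all windows. GCGCATGC, a part of the NRF1 motif, was in 4.49% of member windows (3.05% of all), and TCGCGAGA in 0.375% (1.15% of all). In the windows of all genes at the minimum, CACGTG was in 9.57%, GCGCATGC in 5.08% and TCGCGAGA in 2.42%, each above the share of member windows. A match is a description of letters, and the median GC content was 62.7% in member windows and 58.7% in all.

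Of the 3 windows below, the first 2 show the shared core in a gene that rose and in one that fell, and the third shows the gene with the largest fall, which has none of the 4 motifs. Capitals mark the motifs. ZNF534 is at chr19:52428898-52429197 on the plus strand. ZNF814 is at chr19:57888988-57889287 on the minus strand and holds CACGTG and, read as its reverse complement CTTCCGG, the same core. ZNF69 is at chr19:11887532-11887831 on the plus strand.
ZNF534: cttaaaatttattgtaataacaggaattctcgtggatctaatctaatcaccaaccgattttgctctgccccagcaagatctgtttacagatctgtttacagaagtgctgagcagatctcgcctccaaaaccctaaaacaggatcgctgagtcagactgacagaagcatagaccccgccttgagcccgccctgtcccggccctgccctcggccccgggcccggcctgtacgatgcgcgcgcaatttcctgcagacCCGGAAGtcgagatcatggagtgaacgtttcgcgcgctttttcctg
ZNF814: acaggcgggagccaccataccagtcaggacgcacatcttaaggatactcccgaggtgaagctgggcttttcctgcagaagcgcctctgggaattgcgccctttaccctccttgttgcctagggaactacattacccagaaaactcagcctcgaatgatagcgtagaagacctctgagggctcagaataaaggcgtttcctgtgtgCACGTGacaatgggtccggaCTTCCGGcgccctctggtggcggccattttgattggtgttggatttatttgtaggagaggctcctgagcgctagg
ZNF69: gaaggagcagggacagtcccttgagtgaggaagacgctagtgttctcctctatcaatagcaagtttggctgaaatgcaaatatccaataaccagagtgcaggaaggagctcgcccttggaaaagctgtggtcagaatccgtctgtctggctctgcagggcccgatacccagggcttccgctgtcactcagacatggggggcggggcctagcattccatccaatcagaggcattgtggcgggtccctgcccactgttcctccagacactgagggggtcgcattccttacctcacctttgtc

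The limit of 20 counts decided which genes are described. In CPM it stood at 2.37, 2.41 and 2.57 in the 1CT libraries and at 1.79, 1.76 and 1.59 in the deeper 1CT-A libraries, so it was stricter in 1CT. On it, with a lowest count of 20, lay 7 members, ZNF124, ZNF546, ZNF549, ZNF614, ZNF649, ZNF669 and ZNF626, the last of which had the second largest fall. Just outside, with a lowest count of 19, lay ZNF266, ZNF35, ZNF449, ZNF641 and ZNF783. In CPM, ZNF124 was at 2.57 to 5.44 in 1CT and 5.56 to 6.06 in 1CT-A, and ZNF35 at 2.29 to 3.21 and 3.86 to 4.12.

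A minimum in every library removes genes that are low in one line only. Of the 123 ZNF symbols that were tested but stayed below the minimum, 2 were higher, 29 (23.6%) lower and 92 not called, beside 25.0% higher and 26.0% lower among all genes tested. Many of them passed the filter on low counts only through the line in which they are higher, so these counts are a description and support nothing. The KRAB genes of chromosome 19 gave 21 of these 29 falls, but they also made up 72 of the 123 genes. Of those 72, 29.2% were lower, beside the 26.0% of all genes tested. ZNF667 had 16, 15 and 21 counts in 1CT and 0, 0 and 0 in 1CT-A. ZNF135 had 67, 57 and 50 counts in 1CT and 0, 6 and 3 in 1CT-A.

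ZNF793 had 31, 25 and 39 counts in 1CT and 4, 5 and 4 in 1CT-A, ZNF578 had 64, 55 and 64 against 12, 18 and 9, and ZNF883 had 62, 58 and 44 against 13, 9 and 13. Every 1CT library of these 5 genes was above every 1CT-A library. The filter kept them for their counts in 1CT, so no fitted fold change is given. The rises were ZNF684 and ZNF384. ZNF684 had 5, 7 and 4 counts in 1CT and 18, 13 and 19 in 1CT-A. It passed the filter only through 1CT-A, so no fitted fold change is given for it either. Its call was lost in 6 alternative fits, among them DESeq2, no filter, the replicate block and edgeR without 1CT replicate 1 or 1CT replicate 3. ZNF384 had a log2 fold change of 0.93 (edgeR adjusted p = 0.0315), and its libraries overlapped between the lines. ZNF384 was lost by edgeR without 1CT replicate 2 (adjusted p = 0.0913), without 1CT replicate 3 (0.0696) and without 1CT-A replicate 2 (log2 fold change 0.55, adjusted p = 0.176). Over all 359 ZNF symbols tested, 36 were thus higher and 68 lower, with a median log2 fold change of -0.11, where the well counted members had 34, 39 and -0.03.

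Related zinc finger families with other symbols were counted by the same minimum. Of 47 ZSCAN, ZKSCAN, ZBTB and ZFP genes, 6 were higher, 9 lower and 32 not called, with a median log2 fold change of 0.02. This is 31.9% called, beside 51.0% among all genes at the minimum. The 25 ZBTB genes had 3 higher and 3 lower, and the 8 ZFP genes also 3 and 3. Of the 9 ZSCAN genes, 2 were lower and 7 were not called.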

How the data were processed

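The authors deposited raw counts per gene symbol, 1 file per library, without normalization or pooling. Their processing notes name Bowtie2, edgeR and hg19, without versions; annotation, filters and strand use are not given in the sources used here. Counts of the 286 symbols entered repeatedly were added together. CPM is scaled to each file's total. edgeR 4.0.16 in R 4.3.3 was fitted to all genes with TMM factors, filterByExpr (minimum count 10) and the quasi-likelihood test without a block, with Benjamini-Hochberg adjustment over 12514 genes, and was tested on simulated data. Alternatives used limma 3.58.1, DESeq2 1.42.0, other scalings and filters, and each library left out. Replicates of a line differed beyond counting noise (chi-square per degree of freedom from 3.11 to 9.00). An exact permutation test of 3 against 3 cannot go below p = 0.1. Proteins, transcript ends and gene order come from GENCODE 44 on GRCh38, a build other than the files', and promoters from RefSeq.

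Named genes are the 10 largest called rises and falls without overlap, the 5 most abundant, the 3 smallest changes among members averaging 10 CPM or more, the genes nearest the minimum, the members of fixed lists, APC, and the largest called changes below the minimum. The members and lists were chosen with earlier results of these data known.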

Additional observations from a re-analysis of the deposited data

How the results depend on the processing

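Among the members, 34 were higher and 39 lower. DESeq2 called 31 and 28, limma-voom 34 and 42, edgeR with library size only 41 and 32, without a filter 40 and 32, and with upper-quartile normalization, added after seeing the data, 31 and 50. Leaving out each library in turn gave 29 to 36 higher and 24 to 33 lower, the 24 without 1CT-A replicate 2, and medians from -0.04 to -0.01. At an adjusted p under 0.01, 21 were lower, and with a fold change of at least 2, 3 were higher and 5 lower. The median of -0.03 was 0.0145 without a filter, -0.0878 with upper-quartile normalization and -0.105 over all 359 ZNF symbols tested, of which 68 were lower. With TMM factors the summed level was 4470 CPM in 1CT and 4561 CPM in 1CT-A, and the libraries of the lines overlapped. The cause of these shifts was not tested. Without the 55 members whose ends share or overlap other genes, also added after seeing the data, 31 were higher and 32 lower.

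Replicate numbers did not pair the samples (correlations of -0.157, 0.215 and -0.137). With a replicate block 34 were higher, 32 of them shared, and 33 lower, all shared. In every edgeR, limma and DESeq2 fit, 26 of the 34 higher and 17 of the 39 lower calls were kept. The median turned its sign without a filter, with library size only (0.00693) and without shared or overlapping ends (0.00179), and higher calls outnumbered lower ones without a filter, with library size only, by DESeq2, with the replicate block and in 4 of the 6 fits that left out a library, among others. Of the genes named for their own values, none that was called turned its direction. Depth limits most the genes near 20 counts.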
